A study of Mus musculus with 4 samples.

Results

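The genes described here are 34 genes of T cells, natural killer (NK) cells and intraepithelial lymphocytes, chosen by name as markers, receptors, signalling proteins, killing proteins and transcription factors of these cells. All 34 of 34 were present among the 23074 gene symbols measured, each as a single row, and none was at 0 in any library. RNA-seq was done on whole colon tissue of mice aged 6 weeks, from the 2 cm next to the caecum, with 2 libraries of Nkx2.2flox/flox; Villin-Cre/+ mice, called mutants, and 2 libraries of Nkx2.2flox/+ mice, called controls. Nkx2-2 is a transcription factor gene of hormone-producing gut cells, the mutants carry 2 floxed alleles of it and a Villin-Cre transgene, whose promoter is active in the gut epithelium, and the controls carry 1 floxed allele with no Cre given in their genotype. The strain of all 4 was mixed, and neither sex, litter nor cage is given. It is not stated whether 1 group's libraries are of different animals, so a p-value here reflects only how these libraries spread, which may be technical.

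T cells recognise antigen through the T cell receptor, whose signal is carried by the CD3 chains to the kinases LCK and ZAP-70 and the adaptor LAT, with CD4 or CD8 as coreceptor. NK cells and innate lymphoid cells lack that receptor and use activating and inhibitory surface receptors instead. In the gut, many T cells lie between the epithelial cells; these intraepithelial lymphocytes are known for the integrin chain CD103 (Itgae), for CD8 made of 2 alpha chains, and for stored granzymes. Others lie below in the lamina propria, where helper and regulatory T cells are common.

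The promoters of the CD3 genes are shown because these genes define T cells and were read together here, and those of Lck because its isoforms begin at 2 start sites that the files list apart. Sequences are from RefSeq on GRCm38.p6, each running from 250 bases before to 50 after the start, 5′ to 3′ on the strand of the gene; capitals mark the ETS core AGGAAG or CTTCCT and the RUNX core TGTGGT or ACCACA, searched on both strands. Both are motifs of factor families known for their part in lymphocyte gene expression, and no match of one overlaps a match of the other in the sequences printed. The Cd3d promoter is at chr9:44981536-44981835 on the plus strand, that of Cd3e at chr9:45009562-45009861 on the minus strand, that of Cd3g at chr9:44980382-44980681 on the minus strand, and that of Cd247 at chr1:165788431-165788730 on the plus strand. The Lck promoters, on the minus strand, are at chr4:129573592-129573891 (upstream) and chr4:129558323-129558622 (downstream).
Cd3d: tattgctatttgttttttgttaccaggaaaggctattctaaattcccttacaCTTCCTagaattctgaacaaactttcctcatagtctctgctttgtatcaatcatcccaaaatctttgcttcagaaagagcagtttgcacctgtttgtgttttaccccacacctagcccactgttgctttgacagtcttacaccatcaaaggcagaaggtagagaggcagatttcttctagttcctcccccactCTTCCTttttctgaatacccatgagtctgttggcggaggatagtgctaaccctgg
Cd3e: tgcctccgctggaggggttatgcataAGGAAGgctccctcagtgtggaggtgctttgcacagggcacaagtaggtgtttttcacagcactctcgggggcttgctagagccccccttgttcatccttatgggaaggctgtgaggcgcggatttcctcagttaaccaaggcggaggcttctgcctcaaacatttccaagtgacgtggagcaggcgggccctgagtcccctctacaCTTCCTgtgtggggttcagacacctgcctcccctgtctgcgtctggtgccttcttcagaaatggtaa
Cd3g: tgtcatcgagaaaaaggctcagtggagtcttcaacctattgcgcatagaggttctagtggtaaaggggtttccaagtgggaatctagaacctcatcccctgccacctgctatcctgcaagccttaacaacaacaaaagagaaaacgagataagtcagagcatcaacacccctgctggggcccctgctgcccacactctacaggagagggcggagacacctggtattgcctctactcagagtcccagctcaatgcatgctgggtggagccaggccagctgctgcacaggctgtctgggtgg
Cd247: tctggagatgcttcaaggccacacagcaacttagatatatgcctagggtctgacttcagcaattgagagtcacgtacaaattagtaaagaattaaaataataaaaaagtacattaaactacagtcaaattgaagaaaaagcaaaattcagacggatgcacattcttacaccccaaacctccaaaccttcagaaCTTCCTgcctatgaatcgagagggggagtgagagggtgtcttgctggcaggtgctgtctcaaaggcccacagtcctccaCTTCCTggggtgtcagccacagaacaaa
Lck upstream: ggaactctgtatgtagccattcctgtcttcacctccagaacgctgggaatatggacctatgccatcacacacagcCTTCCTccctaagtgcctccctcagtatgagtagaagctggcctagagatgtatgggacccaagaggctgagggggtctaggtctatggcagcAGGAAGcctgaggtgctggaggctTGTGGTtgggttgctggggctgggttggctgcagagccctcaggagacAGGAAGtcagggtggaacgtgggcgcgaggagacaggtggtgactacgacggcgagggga
Lck downstream: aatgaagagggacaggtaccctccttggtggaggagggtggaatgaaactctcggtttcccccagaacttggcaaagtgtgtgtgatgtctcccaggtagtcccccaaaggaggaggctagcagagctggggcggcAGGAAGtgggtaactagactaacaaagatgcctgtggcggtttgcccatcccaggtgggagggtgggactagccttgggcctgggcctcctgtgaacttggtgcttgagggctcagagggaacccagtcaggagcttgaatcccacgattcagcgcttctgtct

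None of the 4 CD3 promoters held the RUNX core. The ETS core stood 2 times each in those of Cd3d, Cd3e and Cd247, and 0 times in that of Cd3g. The upstream Lck promoter held 1 RUNX core and 3 ETS cores, and the downstream one 0 and 1. The RefSeq table held 29 promoters for 23 of the 34 genes. Of these, 14 (48.3%) held the RUNX core, against 16.8% of all 32851 promoters of 300 bases, and 17 (58.6%) held the ETS core, against 35.4%. Several promoters belong to the same gene, and a match of letters is a description and not a binding site.

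Levels are given in FPKM, a fragment count corrected for the size of the transcript and of the library, and genes averaging at least 0.5 FPKM over the 4 libraries were tested. The libraries differed in ways that bear on these genes. Depth relative to control 1 was 0.464 in mutant 1, 1.03 in mutant 2 and 1.13 in control 2. The fragments behind a gene's value, read from the width of its deposited 95% interval, had a median of 23.0 over the 34 genes in mutant 1, 69.5 in mutant 2, 124 in control 1 and 70.5 in control 2, and 15 of the 34 rested on fewer than 20 fragments in mutant 1. Control 1 stood apart from control 2 in immune genes. Its value was the highest of the 4 libraries for 29 of the 34 genes (85.3%), while it was the highest for 45.6% of all 13997 genes tested. It was at least 1.5 times that of control 2 for 22 of the 32 lymphocyte genes tested (68.8%), against 9.59% of all genes. The median ratio of control 1 to control 2 was 1.69 among these 32 genes and 1.05 among all. B cell genes moved with this split: the summed level of 15 of them was 74.9 and 82.9 FPKM in the mutants, against 292 and 83.7 FPKM in controls 1 and 2. Of these sums, 43.5 and 56.2 FPKM in the mutants and 59.2 and 59.1 FPKM in controls 1 and 2 came from Blnk alone. The part of B cell or other immune content in the lymphocyte gene results was not tested, and each result below is given with its values in both controls.

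The targeted gene, Nkx2-2, stood at 0.125 and 0.351 FPKM in the mutants, against 0.724 and 0.609 FPKM in the controls. The mutants were both below the controls, in the direction of the labels, and the log2 change of −0.68 had an unadjusted limma p of 0.0634.

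The comparison of mutant with control asked which lymphocyte genes differed when Nkx2-2 was deleted in the epithelium. Mean levels over the 4 libraries ran from 0.296 FPKM for Foxp3 to 18.8 FPKM for Gzmb. Of the 32 genes tested, 31 had a lower mean log2 level in the mutants. The median log2 change of mutant over control over the 32, on the log2(FPKM + 0.5) scale, was −0.65, which is −0.49 relative to the median of −0.17 over all 13997 tested genes. Genes were tested with limma, a linear model that shares information on spread between genes, and p-values were adjusted over all genes tested. No single gene of the 32 passed an adjusted p of 0.05 in limma; 0.0286% of all genes passed as lower and 0.0357% as higher. At an unadjusted p under 0.05, 13 of the 32 (40.6%) were lower, against 4.12% of all genes, and 0 were higher, against 0.7%. Both mutant libraries lay below both controls for 17 of the 32 (53.1%), against 35.1% of all genes, and above both for 0, against 3.39%. In a bulk library, fewer cells of a type and less RNA per cell cannot be told apart.

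Since most genes of all kinds were slightly lower in the mutants (82.6% of all, and 96.9% of the lymphocyte genes), the libraries were also rescaled by median ratios, which moved the median of all genes to 0.01. The lymphocyte genes then had a median of −0.49 and 31 of 32 below 0, against 49% of all genes. Both mutants then lay below both controls for 13 of 32 (40.6%), against 15.3% of all genes, and above both for 1, Ncr1, against 15.3%. Cd28, Cd244, Itgae and Il2rb were apart before rescaling and overlapped after it. The unadjusted p stayed under 0.05 on the lower side for 6 genes, Cd3d, Cd8a, Cd7, Gzmb, Klrd1 and Il7r, against 1.83% of all genes.

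**Figure D1:**
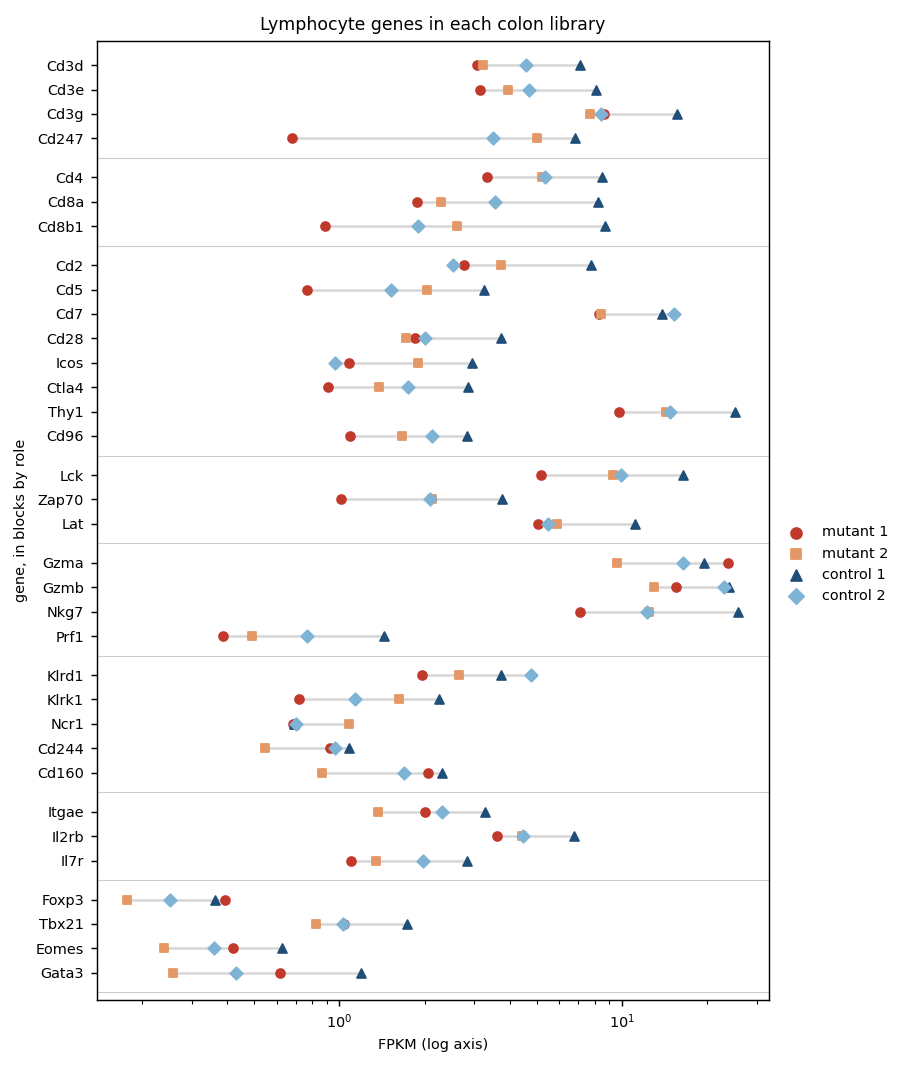
FPKM of each of the 34 genes (log axis) in mutant 1, mutant 2, control 1 and control 2, in blocks by role, 1 symbol per library. Control 1 is the rightmost symbol for 29 of the 34 genes; for Cd7 and Gzmb, the 2 genes with the smallest p, both mutants lie left of both controls.

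The CD3 chains that carry the T cell receptor signal were present in every library. Cd3d, the delta chain, had 3.06 and 3.22 FPKM in the mutants, against 7.11 and 4.57 FPKM in the controls. Cd3e, the epsilon chain, had 3.15 and 3.94 FPKM in the mutants, against 8.12 and 4.70 FPKM in the controls. For both, the mutants lay below the lower control, and for Cd3d they agreed closely with each other. For Cd3e, mutant 2 was 1.25 times mutant 1 and stood at 0.837 of control 2. The log2 change of Cd3d was −0.77 (SE 0.26, 95% interval −1.36 to −0.19, limma unadjusted p = 0.0160, adjusted p = 0.825). That of Cd3e was −0.74 (SE 0.28, 95% interval −1.38 to −0.09, limma unadjusted p = 0.0308, adjusted p = 0.825). Cd3g, the gamma chain and the most abundant of the 4, had 8.61 and 7.68 FPKM in the mutants, against 15.6 and 8.39 FPKM in the controls, so the groups overlapped through control 2. Cd247, the zeta chain, which NK receptors also use, had 0.680 and 4.995 FPKM in the mutants, against 6.80 and 3.51 FPKM in the controls. The low value of mutant 1 rested on an estimated 4.65 fragments, and mutant 2 exceeded control 2. Over the 4 chains the median log2 change was −0.75, or −0.59 relative to all genes. Without control 1 it was −0.42, or −0.29 relative to all genes. The groups did not overlap for 2 of the 4, against 35.1% of all genes.

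The 3 coreceptors had a median log2 change of −1.18, or −1.01 relative to all genes. Without control 1 it was −0.32, or −0.19 relative to all genes. Cd8a, the alpha chain found on conventional CD8 T cells and on many intraepithelial lymphocytes, had 1.88 and 2.29 FPKM in the mutants, against 8.22 and 3.56 FPKM in the controls. Both mutants lay below both controls, and the controls differed by 2.31-fold between themselves. Its log2 change of −1.21 was the lowest of the 32 genes (SE 0.35, 95% interval −2.01 to −0.40, limma unadjusted p = 0.0086, adjusted p = 0.825). Cd8b1, the beta chain of conventional CD8 T cells, had 0.890 and 2.61 FPKM in the mutants, against 8.69 and 1.90 FPKM in the controls. Here 1 library carries the contrast: control 1 was 4.57 times control 2, the widest gap between controls among the 34 genes, and mutant 2 lay above control 2. Cd4, the coreceptor of helper T cells, which some myeloid and innate lymphoid cells also carry, had 3.32 and 5.19 FPKM in the mutants, against 8.49 and 5.34 FPKM in the controls. The groups did not overlap, although mutant 2 and control 2 were close, and the log2 change was −0.64 (SE 0.29, 95% interval −1.30 to 0.03, limma unadjusted p = 0.0601, adjusted p = 0.825).

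Among the 8 surface genes of adhesion and costimulation, Cd7 had the smallest p of all 32 genes. Cd7 encodes an immunoglobulin-family protein of T, NK and innate lymphoid cells, and it had 8.27 and 8.45 FPKM in the mutants, against 13.8 and 15.2 FPKM in the controls. The 2 libraries of each group were close to each other, and the groups were well apart. The log2 change was −0.76 (SE 0.19, 95% interval −1.20 to −0.32, limma unadjusted p = 0.0038, adjusted p = 0.818). Thy1, a T cell surface protein that stromal and neural cells also express, had 9.75 and 14.3 FPKM in the mutants, against 25.1 and 14.7 FPKM in the controls. Ctla4, the inhibitory counterpart of CD28, had 0.913 and 1.38 FPKM in the mutants, against 2.85 and 1.74 FPKM in the controls. Cd96, a receptor of T and NK cells for nectin-family ligands, had 1.09 and 1.66 FPKM in the mutants, against 2.83 and 2.12 FPKM in the controls. These 3 did not overlap between groups, although for Thy1 mutant 2 stood at 0.968 of control 2. Cd28, the main costimulatory receptor, had 1.84 and 1.72 FPKM in the mutants, against 3.73 and 2.00 FPKM in the controls, again without overlap.

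The other 3 surface genes overlapped through control 2. Cd2, an adhesion molecule, had 2.75 and 3.72 FPKM in the mutants, against 7.74 and 2.52 FPKM in the controls. Cd5, which dampens receptor signalling, had 0.769 and 2.04 FPKM in the mutants, against 3.25 and 1.52 FPKM in the controls. Icos, the inducible costimulator, had 1.08 and 1.90 FPKM in the mutants, against 2.94 and 0.966 FPKM in the controls. Control 2 was the lowest library for Cd2 and Icos while control 1 was the highest, at 3.07 and 3.05 times control 2. Over the 8 genes the median log2 change was −0.64, or −0.48 relative to all genes. Without control 1 it was −0.24, or −0.10 relative to all genes.

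Of the first signalling proteins behind the receptor, Lck, the kinase bound to CD4 and CD8, had 5.17 and 9.32 FPKM in the mutants, against 16.4 and 9.93 FPKM in the controls. The groups did not overlap, but mutant 2 stood at 0.939 of control 2, and the log2 change was −0.83 (SE 0.32, 95% interval −1.57 to −0.09, limma unadjusted p = 0.0319, adjusted p = 0.825). Zap70, the kinase recruited to the phosphorylated CD3 chains, had 1.02 and 2.12 FPKM in the mutants, against 3.77 and 2.09 FPKM in the controls. Lat, the adaptor, had 5.02 and 5.91 FPKM in the mutants, against 11.1 and 5.46 FPKM in the controls. For Zap70 and Lat mutant 2 exceeded control 2, so the groups overlapped.

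The proteins of cytotoxic granules did not follow a single pattern. Gzmb, a granzyme of cytotoxic lymphocytes, had 15.5 and 13.0 FPKM in the mutants, against 23.9 and 22.9 FPKM in the controls. The controls were within 1.04-fold of each other, both mutants were below them, and the log2 change was −0.70 (SE 0.19, 95% interval −1.14 to −0.26, limma unadjusted p = 0.0061, adjusted p = 0.825). Gzma, another granzyme of T and NK cells, had 23.8 and 9.63 FPKM in the mutants, against 19.5 and 16.5 FPKM in the controls. Its highest and lowest libraries were both mutants, and its log2 change was −0.23 (SE 0.36, 95% interval −1.07 to 0.60). Nkg7, a protein of granule membranes, had 7.11 and 12.5 FPKM in the mutants, against 25.8 and 12.3 FPKM in the controls, and overlapped through control 2. Prf1, the pore-forming perforin, had 0.387 and 0.488 FPKM in the mutants, against 1.44 and 0.765 FPKM in the controls, without overlap, on 5 and 14 fragments in the mutants.

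Receptors of the NK type did not share a pattern. Klrd1 (CD94), the partner chain of NKG2 receptors, had 1.96 and 2.65 FPKM in the mutants, against 3.74 and 4.75 FPKM in the controls. It was 1 of 3 genes in which control 2 exceeded control 1, the others being Cd7 and Ncr1, and the groups did not overlap. Its log2 change was −0.76 (SE 0.25, 95% interval −1.33 to −0.19, limma unadjusted p = 0.0149, adjusted p = 0.825), on 9 fragments in mutant 1. Klrk1 (NKG2D), a receptor for stress ligands, had 0.720 and 1.62 FPKM in the mutants, against 2.24 and 1.14 FPKM in the controls. Cd160, a receptor for the ligand HVEM found on many intraepithelial lymphocytes, had 2.05 and 0.870 FPKM in the mutants, against 2.31 and 1.69 FPKM in the controls. Both overlapped, with the mutants in opposite order. Cd244 (2B4), which binds CD48, had 0.926 and 0.544 FPKM in the mutants, against 1.08 and 0.961 FPKM in the controls, a narrow separation. Ncr1 (NKp46), a receptor of NK cells and some innate lymphoid cells, had 0.684 and 1.08 FPKM in the mutants, against 0.688 and 0.704 FPKM in the controls. It was the only tested gene of the 32 with a positive log2 change, 0.19 (SE 0.29, 95% interval −0.47 to 0.86), and 3 of its 4 libraries were alike.

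All 3 genes of homing and cytokine receptors had both mutants below both controls as deposited, as did 35.1% of all genes, and Il7r alone of the 3 did so after median ratio rescaling. Il7r, the receptor chain for interleukin-7 that resting T cells and innate lymphoid cells depend on, had 1.10 and 1.35 FPKM in the mutants, against 2.83 and 1.98 FPKM in the controls. Its log2 change was −0.74 (SE 0.27, 95% interval −1.36 to −0.13, limma unadjusted p = 0.0239, adjusted p = 0.825). Itgae, the CD103 chain that binds E-cadherin on epithelial cells, had 2.01 and 1.37 FPKM in the mutants, against 3.28 and 2.30 FPKM in the controls. Its log2 change was −0.59 (SE 0.28, 95% interval −1.22 to 0.05, limma unadjusted p = 0.0660, adjusted p = 0.825). Il2rb, shared by the receptors for interleukin-2 and interleukin-15, had 3.62 and 4.42 FPKM in the mutants, against 6.75 and 4.47 FPKM in the controls, with mutant 2 at 0.990 of control 2.

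The transcription factors were the least abundant group, and 2 of the 4 were below the mean of 0.5 FPKM needed for testing. Foxp3, the factor of regulatory T cells, had 0.393 and 0.177 FPKM in the mutants, against 0.364 and 0.251 FPKM in the controls. Eomes, of NK and memory T cells, had 0.420 and 0.240 FPKM in the mutants, against 0.625 and 0.359 FPKM in the controls. In both, mutant 1 lay between the controls or above them and mutant 2 was lowest. Tbx21 (T-bet), of type 1 helper T cells and NK cells, had 1.04 and 0.824 FPKM in the mutants, against 1.73 and 1.03 FPKM in the controls. Gata3, of type 2 helper T cells and innate lymphoid cells, had 0.618 and 0.257 FPKM in the mutants, against 1.19 and 0.430 FPKM in the controls. None of the 4 separated the groups.

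**Figure D2:**
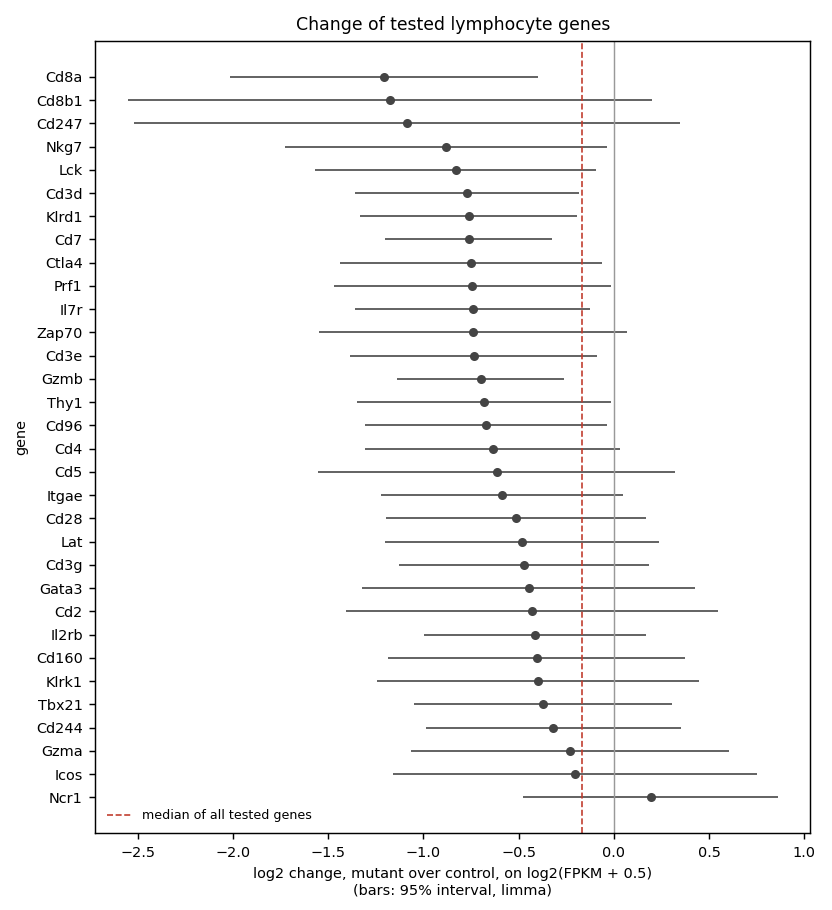
Log2 change of mutant over control for the 32 tested genes, on log2(FPKM + 0.5), with 95% intervals from limma as bars and the median of all tested genes, −0.17, as a dashed line. All points except that of Ncr1 lie left of 0; the intervals of Cd247 and Cd8b1 are the widest and those of Gzmb and Cd7 the narrowest.

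Pairs of single libraries showed how far each contrast rested on control 1. Against control 1, 31 of the 32 genes were lower in mutant 1 and 31 in mutant 2, with median differences of −1.08 and −0.84 in log2(FPKM + 0.5); the medians of all genes were −0.31 and −0.09. Of all genes, 83.3% and 65.5% were lower in these 2 pairs. Against control 2, 25 of the 32 were lower in mutant 1 (78.1%, against 81.5% of all genes), with a median of −0.51 beside −0.25 for all genes. In mutant 2, 22 were lower than in control 2 (68.8%, against 55.8% of all genes), with a median of −0.19 beside −0.03 for all genes. The 2 controls differed from each other by more than either mutant differed from control 2: control 1 minus control 2 had a median of 0.66 over the 32 genes, beside 0.06 over all genes.

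**Figure D3:**
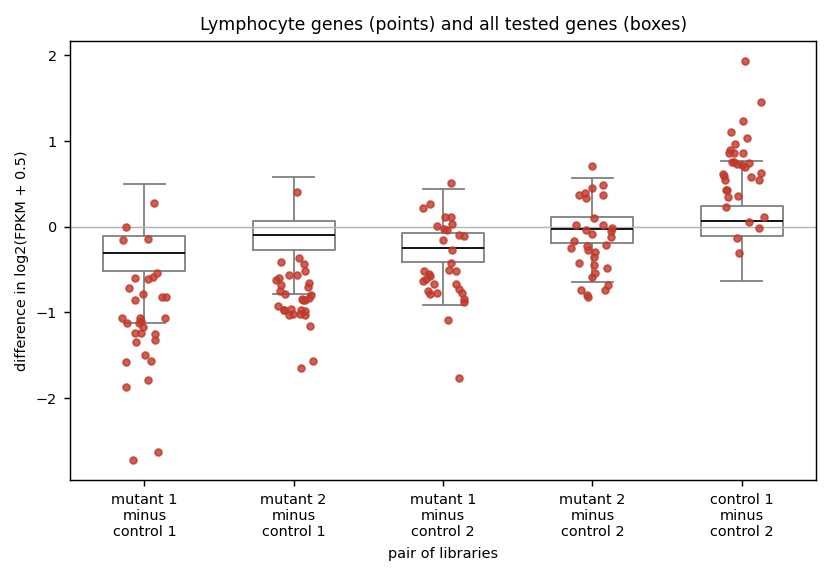
Difference in log2(FPKM + 0.5) between pairs of libraries, with the 32 tested lymphocyte genes as points and all 13997 tested genes as boxes (median, quartiles, and whiskers to 1.5 times the box height, with more distant genes not drawn). The points lie mostly below 0 in the pairs with control 1, closer to the boxes in the pairs with control 2, and above 0 for control 1 minus control 2.

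Leaving out a library changed the size of the difference accordingly. Without control 1, the median log2 change of the 32 genes was −0.32, which is −0.18 relative to all genes, 29 of 32 were below 0 against 75.5% of all genes, and 0 passed the adjusted threshold in limma against 0.379% of all genes as lower. Without control 2, the median was −0.92, or −0.72 relative to all genes, 31 of 32 were below 0 against 80.3% of all genes, and 6 genes passed as lower, Cd247, Cd8a, Cd8b1, Cd2, Lck and Nkg7, against 1.95% of all genes. Without mutant 1 the median relative to all genes was −0.48, with 28 of 32 below 0 against 64% of all genes. Without mutant 2 it was −0.52, with 30 of 32 below 0 against 84.9% of all genes. No lymphocyte gene passed in limma without mutant 1 or without mutant 2, against 0% and 0.0286% of all genes as lower. In these fits the group with a lone library is assumed to vary like the other. Mutant libraries lay below control libraries for 22 of the 32 without mutant 1 (68.8%, against 42.5% of all genes) and for 25 without mutant 2 (78.1%, against 73.8%). The count was 17 without control 1 (53.1%, against 49.1%) and 30 without control 2 (93.8%, against 59.3%). Gzmb and Cd7, the 2 genes with the smallest p, gave 0.677 and 0.543 as the ratio of mutant 1 to control 2. The ratios of mutant 2 to control 2 were 0.568 and 0.555. Both genes were picked by p from these same libraries, so low ratios to control 2 follow in part from the choice. Against control 2, the median difference of all genes in log2(FPKM + 0.5) was −0.25 in mutant 1 and −0.03 in mutant 2.

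Ratios inside a library are free of scaling between libraries. Cd8a relative to Cd4 was 0.567 and 0.442 in the mutants, against 0.969 and 0.667 in the controls. This was the only ratio of those computed in which the groups did not overlap, and with 2 libraries against 2 an exact permutation test cannot give a p below 0.333. Relative to the mean of Cd3d, Cd3e and Cd3g, Itgae was 0.407 and 0.277 in the mutants, against 0.319 and 0.391 in the controls. Gzmb relative to the same mean was 3.14 and 2.63 in the mutants, against 2.32 and 3.89 in the controls. Both overlapped, the controls lying farther apart than the mutants for Gzmb. Gzma was 4.81 and 1.95 in the mutants, against 1.90 and 2.80 in the controls, with mutant 1 alone high. Klrd1 was 0.397 and 0.536 in the mutants, against 0.364 and 0.807 in the controls. Foxp3 was 0.0794 and 0.0359 in the mutants, against 0.0354 and 0.0426 in the controls. For Klrd1 the mutants lay between the controls, and for Foxp3 mutant 1 alone was high.

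Further ratios were added after the values were seen. Cd8a relative to Cd8b1 was 2.11 and 0.878 in the mutants, against 0.946 and 1.87 in the controls, so the excess of the alpha over the beta chain was alike in mutant 1 and control 2. Cd247 relative to the CD3 mean was 0.138 and 1.01 in the mutants, against 0.661 and 0.596 in the controls, with mutant 1 alone low. Cd3e relative to the epithelial gene Epcam, in thousandths, was 4.03 and 4.69 in the mutants, against 9.40 and 4.57 in the controls, with control 1 alone high. Cd3e relative to the B cell gene Cd79a was 0.523 and 0.823 in the mutants, against 0.208 and 1.12 in the controls, with control 1 lowest.

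**Figure D4:**
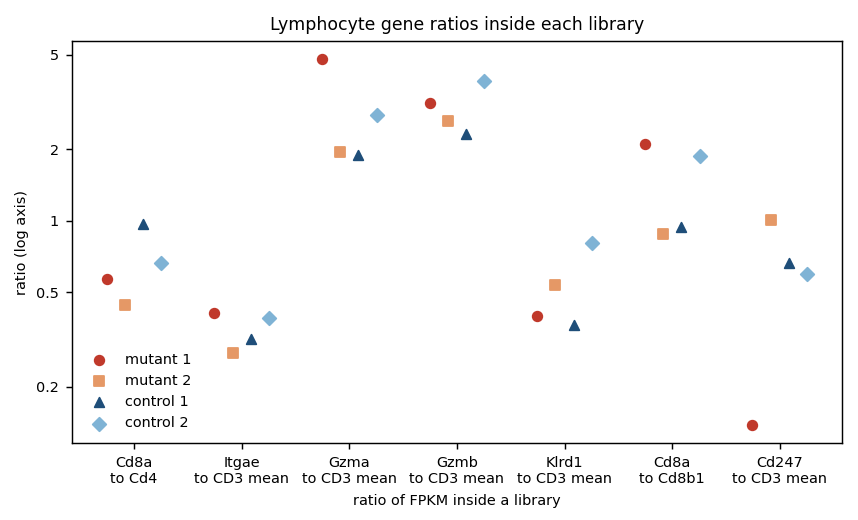
Ratios of FPKM inside each library (log axis), 1 symbol per library, where the CD3 mean is that of Cd3d, Cd3e and Cd3g. Cd8a to Cd4 is the only ratio with both mutants (0.567 and 0.442) below both controls (0.969 and 0.667).

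Isoform estimates added detail for a few genes, although assignment among isoforms of low genes is imprecise. Most Lck signal was assigned to NM_001162433, which starts at the upstream promoter shown above and spans 129225588 to 129250885 of chromosome 4 on mm9. It had 5.17 and 9.14 FPKM in the mutants, against 16.4 and 8.55 FPKM in the controls, and in control 2 that was 86.2% of the Lck estimate. Of the transcripts from the downstream promoter, NM_010693 was estimated at 1.37 FPKM in control 2 and at 0 to the precision printed in the other 3 libraries, and NM_001162432 was highest in mutant 2, at 0.174 FPKM. Lck is known to have such a pair of promoters, the downstream one typical of thymocytes and the upstream one used also by peripheral T cells. For Cd8a, NM_001081110 had 0.000437 and 2.04 FPKM in the mutants, against 6.24 and 1.97 FPKM in the controls. The other Cd8a transcript, NM_009857, had 1.88 and 0.251 FPKM in the mutants, against 1.98 and 1.59 FPKM in the controls. The second transcript was the main one in mutant 1 and the minor one in mutant 2. Of the transcripts of Cd247, mutant 1 had signal on NM_001113391 alone, at 0.680 FPKM.

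The 34 genes lie on many chromosomes, with 6 on chromosome 1 and 5 each on chromosomes 6 and 9. On mm9, Cd3g (44777655 to 44788514), Cd3d (44789869 to 44795135) and Cd3e (44806826 to 44817673) form a cluster on chromosome 9, with 1354 bases between Cd3g and Cd3d and 11690 between Cd3d and Cd3e. On chromosome 6, Cd8b1 and Cd8a are 35975 bases apart and Klrd1 and Klrk1 11545. On chromosome 1, 135665 bases separate Cd28 from Ctla4, and 62083 separate Ctla4 from Icos. Neighbours did not share a pattern throughout: the groups were apart for Cd3d, Cd3e, Cd8a, Klrd1, Cd28 and Ctla4 and overlapped for Cd3g, Cd8b1, Klrk1 and Icos. The loci of 3 of the 34 genes overlap another gene, Cd247 with Pou2f1, Itgae with Gsg2, and Foxp3 with Ccdc22 and 4930524L23Rik, and whether strand was used in counting is not given in the sources used here, so their values are less certain.

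Wider lists of lymphocyte genes gave no gene past the adjusted threshold in limma (0.0643% of all genes in either direction). Of 25 genes of T cell receptor signalling, 13 had both mutants below both controls (35.1% of all genes), 4 had an unadjusted p under 0.05 on the lower side (4.12% of all genes), and the median log2 change was −0.34 relative to all genes. Fyn, a Src-family kinase, had 3.92 and 4.79 FPKM in the mutants, against 9.63 and 6.21 FPKM in the controls (log2 change −0.77, limma unadjusted p = 0.0167, adjusted p = 0.825). Cd6, a T cell surface receptor, had 1.22 and 1.53 FPKM in the mutants, against 3.24 and 2.25 FPKM in the controls (log2 change −0.78, limma unadjusted p = 0.0186, adjusted p = 0.825). These resembled Cd3d and Cd3e, while Bcl10, an adaptor that other cells use as well and the most abundant of the list, overlapped at 41.8 and 51.0 FPKM in the mutants, against 55.6 and 49.5 FPKM in the controls.

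Among 17 genes of tissue-resident lymphocytes, 9 had groups that did not overlap, all lower (35.1% of all genes), and the median was −0.38 relative to all genes. Ccl5, a chemokine that resident T cells store, had 47.2 and 63.8 FPKM in the mutants, against 154 and 98.5 FPKM in the controls, and its log2 change was −1.16 (SE 0.25, 95% interval −1.74 to −0.58, limma unadjusted p = 0.0016, adjusted p = 0.469). It was the most abundant gene of that list. Ctsw, a protease of cytotoxic lymphocytes, had 4.89 and 4.28 FPKM in the mutants, against 10.6 and 7.31 FPKM in the controls (log2 change −0.88, limma unadjusted p = 0.0061, adjusted p = 0.825). Of 17 genes of NK cells, innate lymphoid cells and their cytokines, 13 were tested, 5 lay lower without overlap and 1 higher (35.1% and 3.39% of all genes), with a median of −0.36 relative to all genes. Id2, a factor of innate lymphoid cells that epithelium also expresses, had 28.4 and 35.8 FPKM in the mutants, against 47.6 and 48.8 FPKM in the controls. Gzmk had 0.982 and 0.111 FPKM in the mutants, against 1.94 and 1.11 FPKM in the controls.

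Of 8 genes of recirculating T cells, all 8 had negative log2 changes (82.6% of all genes), 5 without overlap (35.1% of all genes), with a median of −0.54 relative to all genes. S1pr1, the receptor that guides exit from tissue, had 2.74 and 3.06 FPKM in the mutants, against 6.43 and 4.21 FPKM in the controls. Ccr7, a lymph node homing receptor, had 0.891 and 0.765 FPKM in the mutants, against 3.08 and 1.23 FPKM in the controls, and Klf2, which endothelium also expresses, overlapped. Genes of regulatory T cells and checkpoints differed from these: 10 of 11 were tested, 2 were lower without overlap (35.1% of all genes), and the median was 0.06 relative to all genes. Tnfrsf18 (GITR) had 2.17 and 1.78 FPKM in the mutants, against 3.67 and 2.64 FPKM in the controls. Tnfrsf4 (OX40) had 0.302 and 1.16 FPKM in the mutants, against 2.25 and 1.12 FPKM in the controls, and Maf, the most abundant of the list and not particular to T cells, overlapped. The difference between these lists was not tested. In every wider lymphocyte list control 1 stood above control 2. The median ratio of control 1 to control 2 was 1.60 for T cell receptor signalling and 1.69 for tissue-resident genes. It was 1.63 for NK and innate lymphoid, 1.73 for recirculating and 1.70 for regulatory genes, against 1.05 over all genes. The part of control 1 in the list medians was not tested.

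Ligands and partners of the lymphocyte receptors, most of them made by epithelial or myeloid cells, had a median change like that of all genes. Of 27 genes listed, 20 were tested, 5 were lower without overlap and 0 higher (35.1% and 3.39% of all genes), and the median was −0.00 relative to all genes. Cdh1, the E-cadherin bound by CD103, had 160 and 171 FPKM in the mutants, against 149 and 173 FPKM in the controls. Il7, the cytokine read by the receptor chain Il7r, had 1.39 and 1.28 FPKM in the mutants, against 2.17 and 2.86 FPKM in the controls. Its groups did not overlap, and the log2 change was −0.71 (SE 0.25, 95% interval −1.29 to −0.13, limma unadjusted p = 0.0228, adjusted p = 0.825). Tgfb1, which induces CD103 on T cells, had 4.85 and 7.82 FPKM in the mutants, against 12.4 and 7.58 FPKM in the controls.

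Markers of other cells in the tissue piece moved as follows. The summed level of the 34 lymphocyte genes was 122 and 133 FPKM in the mutants, against 254 and 163 FPKM in the controls, and both mutants were below both controls. The 15 pan-leukocyte genes summed to 195 and 298 FPKM in the mutants, against 629 and 268 FPKM in the controls. The 15 myeloid genes summed to 554 and 933 FPKM in the mutants, against 1214 and 804 FPKM in the controls. For both of these lists mutant 2 was above control 2, unlike the lymphocyte sum. A sum weighs abundant genes most: Gzmb, Gzma and Cd7 had 13.0, 9.63 and 8.45 FPKM in mutant 2, against 22.9, 16.5 and 15.2 FPKM in control 2. Of the 32 lymphocyte genes tested, 22 were lower in mutant 2 than in control 2 (68.8%, against 55.8% of all genes). Their median difference was −0.16 relative to all genes. The 11 epithelial genes summed to 9083 and 10111 FPKM in the mutants, against 9011 and 10911 FPKM in the controls, with no common direction.

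Several B cell genes separated control 1 from the other 3 libraries, but Blnk, the most abundant of the list, did not. Blnk had 43.5 and 56.2 FPKM in the mutants, against 59.2 and 59.1 FPKM in the controls. Ms4a1 (CD20) had 1.62 and 1.01 FPKM in the mutants, against 21.7 and 0.796 FPKM in the controls, and Pax5 had 0.143 and 0 FPKM in the mutants, against 4.19 and 0.0589 FPKM in the controls. The median ratio of control 1 to control 2 was 11.2 over the 15 B cell genes, against 1.69 over the 32 lymphocyte genes. All 15 B cell genes and all 15 pan-leukocyte genes were higher in control 1 than in control 2, as were 29 of the 32 lymphocyte genes tested. So were all 6 smooth muscle and all 5 stromal genes, with smaller median ratios of 1.10 and 1.22. Only 1 of 11 epithelial and 1 of 5 endothelial genes were higher in control 1, with median ratios of 0.811 and 0.870. The median ratio over all genes was 1.05. Plasma cell, mast cell, smooth muscle, stromal and endothelial genes, with 7, 3, 6, 5 and 5 genes tested, had 1, 0, 2, 1 and 3 lower without overlap (35.1% of all genes) and none past the adjusted threshold in limma, with medians between −0.26 and 0.06 relative to all genes.

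**Figure D5:**
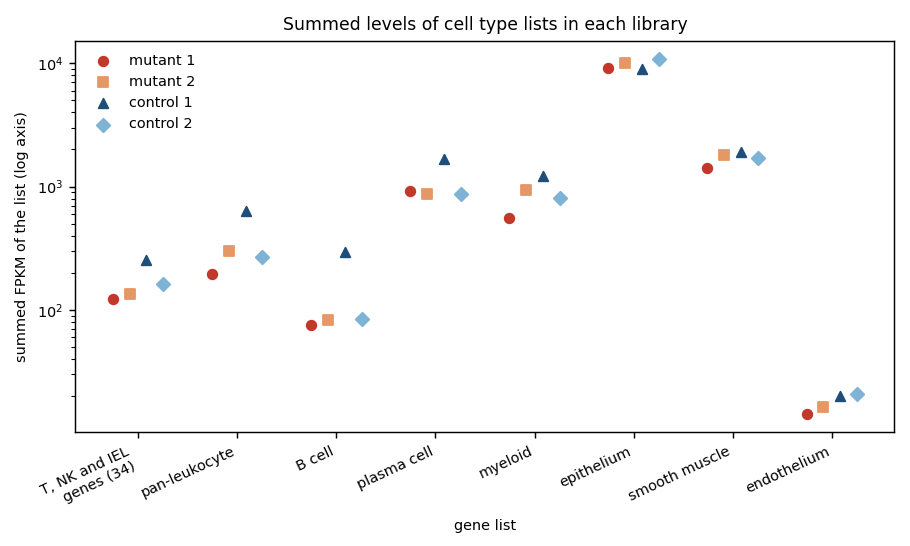
Summed FPKM (log axis) of the 34 lymphocyte genes and of the lists for other cell types, 1 symbol per library. Control 1 is highest for the lymphocyte, pan-leukocyte, B cell, plasma cell, myeloid and smooth muscle lists. Its B cell sum is 292 FPKM, against 83.7 FPKM in control 2. The lymphocyte sums of both mutants, 122 and 133 FPKM, lie below both controls, as do their B cell and endothelial sums. The B cell sums of mutant 2 and control 2 are close, at 82.9 and 83.7 FPKM.

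In the authors' deposited table of DESeq results, all 34 genes were present, and 31 of them had a log2 fold change below 0. Of the 20834 genes with a p-value there, 39% were below 0. That share counts genes without a finite change: of the 17620 with a finite value, 7955 were below 0. The median over the 34 was −0.55 in the authors' deposited table, beside 0.02 over the genes with a finite value. None passed: every adjusted p of the 34 was 1 in the authors' deposited table, where 0.0384% of genes passed, and none had an unadjusted p under 0.05 on the lower side, against 0.254% of all. The smallest unadjusted p of the 34 in the authors' deposited table was that of Gzmb, 0.0533, with a log2 fold change of −0.54. Ncr1 at 0.82, Foxp3 at 0.18 and Gzma at 0.09 were the 3 genes above 0 in the authors' deposited table. Gzmb, Cd8a and Cd7 had the 3 smallest p-values there as well as in the fit to FPKM, which was made from the same 4 libraries.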

How the data were processed

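RNA-seq of colon was compared between 2 mutant and 2 control libraries. Per the file headers, the authors deposited gene and isoform files with FPKM, a 95% interval and a status, and isoform files also hold a coverage signal and the transcript length. The build is mm9, and the tools are TopHat, Cufflinks, DESeq and bcl2fastq 1.8.4, per the submitters' processing notes. The authors' deposited table holds group means (a signal), the fold ratio, its log2 value, the p-value and the adjusted p-value. Of 23699 gene rows, 306 lacked the status OK in a library and were dropped, and rows of the same symbol were added up. The 13997 genes averaging 0.5 FPKM or more were tested on the log2(FPKM + 0.5) scale in limma 3.58.1 (R 4.3.3), using a variance trend and Benjamini-Hochberg adjustment at 0.05. Changes of low genes are understated on this scale. Residual degrees of freedom were 2, and prior ones had a median of 6.27. The fit was also run on simulated data as a check of the code. Genes varied independently there and no library stood apart, so that run does not bear on genes that move together. Foxp3, Eomes and Nkx2-2, under the minimum, were added to the fit without adjusted p. Depth is not stated with the data: relative depth came from coverage over FPKM, and fragments from the interval width. That width was taken to cover counting error only, and for genes with several transcripts, such as Cd247, the fragment number is approximate. File positions were written from 1.

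The members and lists were chosen with earlier results of these data known. The text names every member, gives full statistics for the 8 with the smallest p and for Cd3e, Cd4, Cd8a and Itgae, and names the 2 with the smallest p and the most abundant of each other lymphocyte or ligand list; the lists for other cells are given by sums and counts. Ms4a1, Pax5 and Cd79a, and the Lck promoters, were picked with their values in view, and Blnk was named as the most abundant gene of the B cell list. The alternatives were the pseudocount, filter, scaling, variance model, row status, replicate number, each library left out, and the authors' deposited table.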

Additional observations from a re-analysis of the deposited data

How the results depend on the processing

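Over 464 combinations of a lymphocyte gene and an alternative, 442 kept their direction and side of the adjusted threshold, 9 kept the direction and passed the threshold, and 13 changed sign; 26 of the 34 genes never changed sign. The number of genes passing among all tested was 9, and became 2 without a filter, 3 with median ratio rescaling, 2 with quantile normalization and 195 with the replicate number as a block; with 1 library left out it ran from 8 to 362. The number of lymphocyte genes passing was 0, and 0 to 6 with 1 library left out. With the replicate block, 3 of the 32 passed, Cd247, Cd8a and Cd8b1, against 195 of all 13997 genes. That fit leaves fewer residual degrees of freedom than the main one, and the groups overlapped for Cd247 and Cd8b1. The labels share only a number between groups and do not say whether same-numbered libraries were paired. Deviations of same-numbered libraries had a correlation of −0.00 across 13997 genes and −0.42 across the 32 lymphocyte genes. With 2 libraries per group, such a correlation cannot show whether they were paired. Groups did not overlap for 17 genes, and for 17 to 30 with 1 library left out, where 42.5% to 73.8% of all genes did not overlap on that side. The log2 change of Nkx2-2, −0.68, had an unadjusted limma p of 0.0339 without a filter, 0.0202 without a variance trend and 0.0491 with the block. That limma p was 0.189 with the filter at 2 FPKM, 0.0905 with median ratio rescaling and 0.0665 with quantile normalization. Pseudocounts of 0.1 and 1 gave a limma p of 0.0710 and 0.0671, and keeping all rows gave 0.0650. The change of Nkx2-2 ran from −0.90 to −0.45 with 1 library left out. Foxp3 changed sign to 0.030 with median ratio rescaling and 0.18 in the authors' deposited table, where Gzma was 0.095. With 1 library left out, 8 genes changed sign: Foxp3 ran from −0.25 without mutant 1 to 0.15 without mutant 2, Cd247 from −2.20 without mutant 2 to 0.024 without mutant 1, Icos from −0.82 without control 2 to 0.41 without control 1, Klrk1 from −0.80 without mutant 2 to 0.0024 without mutant 1, Gzma from −0.86 without mutant 1 to 0.40 without mutant 2, Cd160 from −0.85 without mutant 1 to 0.042 without mutant 2, Cd2 from −1.15 without control 2 to 0.30 without control 1, and Ncr1 from −0.014 without mutant 2 to 0.40 without mutant 1. The cause of these changes was not tested. DESeq2 was planned in case the files held counts and was not run, since they hold FPKM. Depth limits mutant 1 most, where 15 of the 34 genes rested on fewer than 20 fragments.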
